A study of Mus musculus with 8 samples.

Results

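Bcl2 family mRNAs were followed in P19 cells, which are mouse embryonal carcinoma cells with features of early embryonic cells, after a block of transcription with and without knockdown of Upf3a. The family was taken as 10 genes chosen by symbol, of 23284 genes in the deposited table, and all 10 passed the filter for testing (average FPKM of at least 1 over the conditions), as did 11452 genes in total. FPKM counts fragments relative to transcript length and library total, so levels can be compared between genes within a condition, and between conditions only relative to the other mRNAs. Control cells received a control siRNA and knockdown cells an siRNA against Upf3a, which encodes a factor of nonsense-mediated mRNA decay. Cells of both arms were given actinomycin D, which stops transcription, a day after transfection. The drug acted for 0, 15, 105 or 225 min, so the 2 arms and 4 times make 8 conditions. The labels list 2 cultures per condition, but the table holds 1 FPKM per gene and condition with a lower and an upper limit. Below, n therefore counts time points, and every spread is a disagreement between time points and not between cultures.

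The Bcl2 family decides whether the outer mitochondrial membrane is breached in apoptosis. The survival proteins Mcl1, Bcl2 and Bcl2l1 (Bcl-xL) hold back the effectors Bax and Bak1, which form pores that release cytochrome c. BH3-only proteins carry stress signals to them: Bcl2l11 (Bim), Bbc3 (Puma) and Pmaip1 (Noxa) are controlled largely through their transcription, Bid through cleavage by caspase 8, and Bad through phosphorylation. Mcl1 is known for the rapid turnover of both its mRNA and its protein.

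The knockdown and the cell line were checked first. Upf3a stood at 13.6, 14.0, 14.0 and 15.0 FPKM at the 4 times in control cells and at 5.27, 4.52, 4.76 and 4.16 FPKM in knockdown cells, with limits apart at all 4 times. All 8 embryonal carcinoma markers had a mean FPKM of 1 or more, and their summed level ran from 1968 to 4013 FPKM over the conditions. The summed level ran from 8.38 to 14.9 FPKM for 6 fibroblast and mesoderm markers, from 0.871 to 4.32 FPKM for 5 endoderm markers (Sox17 and Afp had a mean under 0.1), and from 51.4 to 77.8 FPKM for the 5 neural markers found in the table. FPKM totals ran from 537350 to 923333 per condition and read depth is unknown. In bulk RNA, fewer cells with a transcript and less of it per cell cannot be told apart.

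The 3′ UTRs of the family differ in AU-rich sequence, a class of element known for its part in rapid mRNA turnover, so the densest stretches are shown beside the decay data. The pentamer ATTTA was counted on the transcript strand, overlaps included, in the longest annotated 3′ UTR of each gene (GENCODE vM21, GRCm38). Each line gives 30 bases 5′ to 3′ on the gene's strand with every ATTTA in capitals, for the members with the fastest falls that hold the motif and for Bcl2, which holds most.
Mcl1 (chr3:95662590-95662619, plus strand): ATTTAtccttgatcatagtttgcttATTTA
Bcl2l11 (chr2:128161350-128161379, plus strand): tgtatATTTAttttccgcttATTTAaatgt
Bcl2l1 (chr2:152780892-152780921, minus strand): taagcgtgtctgtATTTAtgtgtgaggagc
Bcl2 (chr1:106543002-106543031, minus strand): ATTTAggaaaaaaaagATTTATTTATTTAa
The ATTTA count was 15 in the 5086 bases of Bcl2, 8 in the 2353 of Mcl1, 6 in the 4218 of Bcl2l11, 4 in the 2192 of Pmaip1 and 1 each in Bcl2l1 (1477 bases) and Bad (1026 bases). Bax (224 bases), Bak1 (1121), Bid (1427) and Bbc3 (971) held none. The nonamer TTATTTATT, which contains the pentamer, occurred only in Bcl2 among the members, with 2 matches. The Pumilio-type motif TGTANATA had 5 matches in Bcl2l11, 4 in Bcl2 and 1 each in Mcl1, Bcl2l1, Bbc3 and Pmaip1. Of 10085 tested genes with an annotated 3′ UTR, 70.3% held ATTTA, 8.30% TTATTTATT and 27.3% TGTANATA. These matches are descriptions of the annotation, and which 3′ ends P19 cells use was not tested.

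Before the block, Bax and Bak1 together stood above Mcl1, Bcl2 and Bcl2l1 together in control cells. In order of level at 0 min, Bax stood at 147.7 FPKM, Mcl1 at 61.6, Bak1 at 27.1, Bid at 16.1, Bcl2l1 at 15.2, Bad at 8.44, Bcl2l11 at 7.58, Bbc3 at 4.70, Pmaip1 at 1.89 and Bcl2 at 1.48 FPKM. The authors' limits separated Bax from Mcl1, Mcl1 from Bak1 and Bbc3 from Pmaip1, while those of all other neighbours in this order overlapped. At 225 min the order in control cells was Bax (272.6 FPKM), Bak1 (38.3), Mcl1 (16.0), Bid (13.5), Bad (11.5), Bcl2l1 (5.88), Bcl2l11 (2.49), Bbc3 (2.23), Pmaip1 (2.10) and Bcl2 (0.820). Mcl1 had thus dropped below Bak1, with limits apart, and its limits now overlapped those of Bid.

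**Figure D1:**
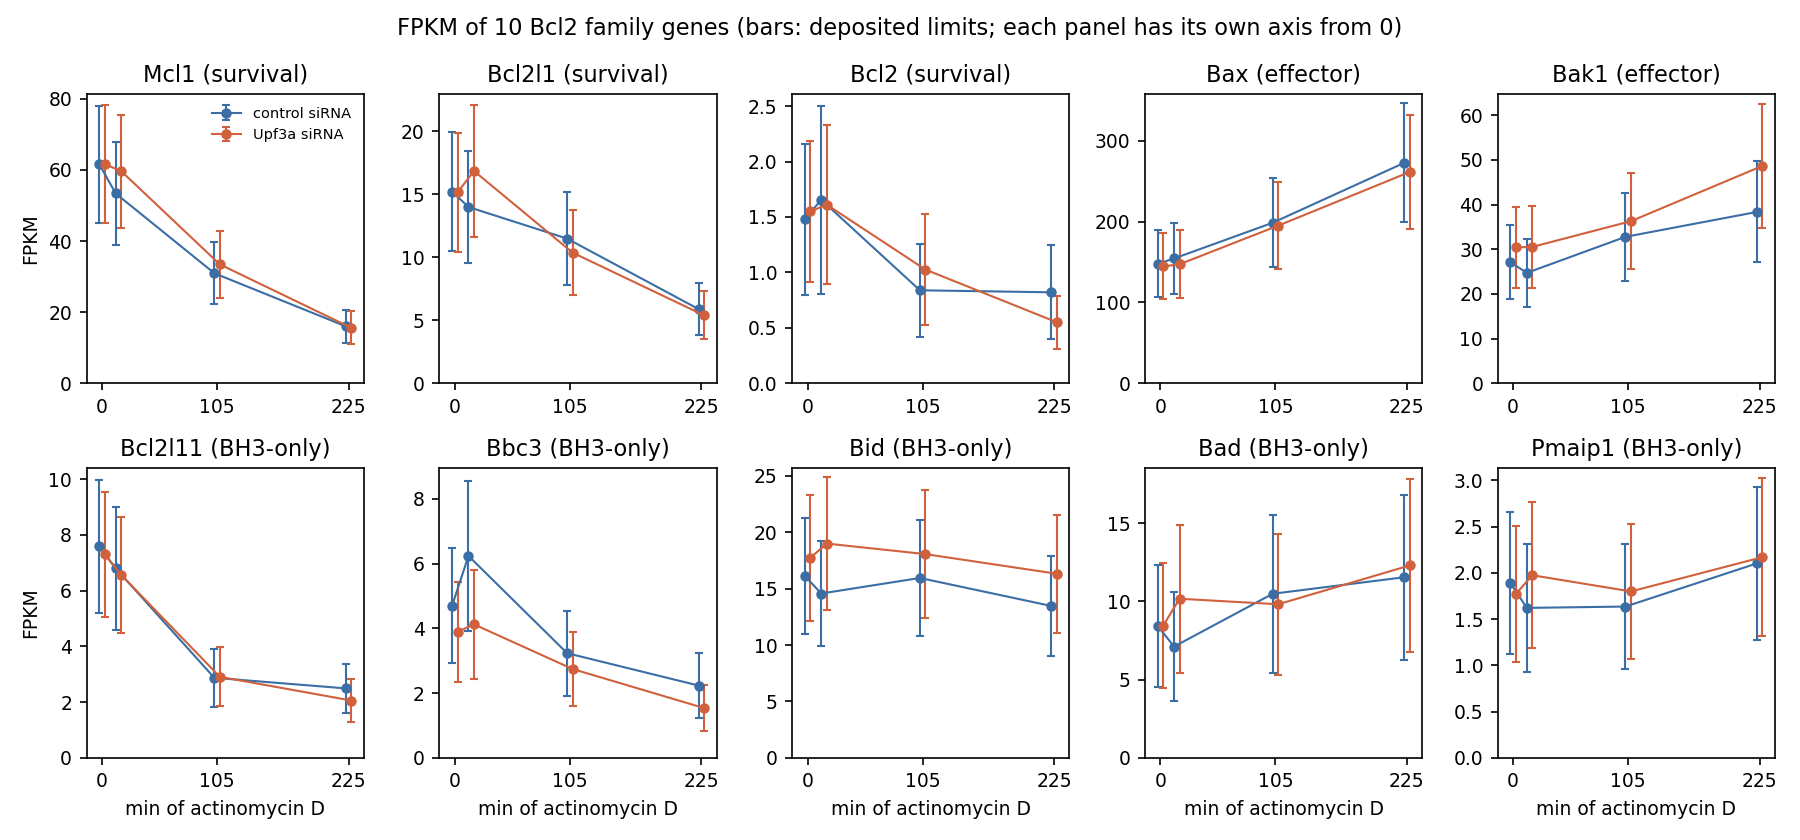
FPKM of each of the 10 genes (y axis, own scale from 0 in each panel) against minutes of actinomycin D (x axis) in control cells (blue) and Upf3a knockdown cells (orange), with bars for the deposited lower and upper limits. Mcl1 goes from 61.6 to 16.0 FPKM in control cells while Bax goes from 147.7 to 272.6, and the limits of the arms overlap for every gene at every time.

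The first comparison asked which members were lost or retained over the time course, as the slope of log2(FPKM + 1) per hour in both arms. Relative to the bulk of mRNA, all 3 survival mRNAs and the BH3-only mRNAs Bcl2l11 and Bbc3 fell, and the effectors Bax and Bak1 and the BH3-only mRNA Bad rose. Bid and Pmaip1 did not pass. By limma at an adjusted p below 0.05, 8 of 10 members passed where 81.3% of all tested genes did. Of these, 5 fell (38.6% of tested genes) and 3 rose (42.7%), so the shares of calls are near the background. FPKM has no outside standard: every rise here is a rise relative to other mRNAs. Scaled to 80 ribosomal protein genes, whose median slope was 0.30 log2 units per hour, the median slope of all genes moved from 0.014 to -0.24. On that scale all 10 members fell, as did 10745 of the tested genes, against 34 that rose, and the slope was -0.79 for Mcl1, -0.61 for Bcl2l1, -0.60 for Bcl2l11, -0.48 for Bbc3 and -0.31 for Bcl2. Quantile normalization moved other slopes by over 1.5 times: to 0.045 (limma adjusted p = 0.036) for Bax, 0.20 for Bad, 0.16 for Pmaip1, -0.15 for Bbc3, -0.065 for Bcl2 and -0.0072 for Bid. Bax was then below Bad, Pmaip1 and Bak1 (0.12), so the order among the retained mRNAs depends on the scaling.

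Mcl1 had the steepest slope over the 4 times, though not without 225 min, where Bcl2l11 had -0.64 and Mcl1 -0.53 log2 units per hour. Mcl1 read 61.6, 53.4, 30.9 and 16.0 FPKM at 0, 15, 105 and 225 min in control cells and 61.7, 59.7, 33.4 and 15.6 FPKM in knockdown cells. Each arm declined at every step, and the limits at 225 min lay below those at 0 min in both arms. That held in both arms for 17.1% of tested genes and for 3 members (Mcl1, Bcl2l1 and Bcl2l11), in control cells for 18% and 3 members, and in knockdown cells for 19.8% and 5 members (Bcl2 and Bbc3 besides). The slope was -0.51 ± 0.02 log2 units per hour (SE, limma adjusted p = 3.3e-07), at percentile 2.84 of all tested genes counted from the fastest fall. On log2 FPKM without a pseudocount, its level halved relative to the bulk in 117 min in control cells and 111 min in knockdown cells. Of the initial level, 26.0% and 25.3% were left at 225 min, where the median gene stood at 102.3% and 104.7%. From 15 to 105 min 0.52 log2 units per hour were lost and from 105 to 225 min 0.48 in control cells, and 0.56 and 0.55 in knockdown cells. In the first 15 min the log2 change was -0.21 in control cells and -0.048 in knockdown cells, with overlapping limits. The Mcl1 gene spans 95658788 to 95663176 of chromosome 3 (GRCm38, plus strand). Its 3′ UTR holds 3.40 ATTTA per kilobase against a median of 1.32 for all tested genes with a 3′ UTR. The density was 2.95 in Bcl2, 1.82 in Pmaip1, 1.42 in Bcl2l11, 0.97 in Bad and 0.68 in Bcl2l1. It was 0 in Bax, Bak1, Bid and Bbc3, so members that fell lie on both sides of the median.

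Bcl2l1, the second survival gene, was lost more slowly. Its FPKM was 15.2, 14.0, 11.5 and 5.88 in control cells and 15.1, 16.8, 10.4 and 5.38 in knockdown cells. The limits at 225 min lay below those at 0 min in both arms. The slope was -0.35 ± 0.03 log2 units per hour (SE, limma adjusted p = 7.3e-06), which is percentile 9.63. In control cells 0.19 log2 units per hour were lost from 15 to 105 min and 0.48 from 105 to 225 min, while in knockdown cells both intervals gave 0.47. Since Mcl1 was lost sooner, the Mcl1 to Bcl2l1 ratio went from 4.05 to 2.72 in control cells and from 4.07 to 2.90 in knockdown cells. Its gene spans 152780668 to 152831728 of chromosome 2 (minus strand).

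Bcl2, which names the family, had the lowest level of the 10. Its FPKM was 1.48, 1.66, 0.839 and 0.820 in control cells and 1.55, 1.61, 1.03 and 0.550 in knockdown cells. The limits at 0 and 225 min overlapped in control cells and lay apart in knockdown cells. The slope was -0.17 ± 0.03 log2 units per hour (SE, limma adjusted p = 3.2e-04) on the log2(FPKM + 1) scale, which understates the change of so low a gene. Without a pseudocount it was -0.27 in control cells and -0.42 in knockdown cells, a relative half-life of 222 and 144 min. Bcl2 had the most ATTTA by count but not the steepest slope. Per kilobase of 3′ UTR, Mcl1 held more (3.40 against 2.95). Whether the motif bears on the slopes was not tested.

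Both effector mRNAs rose relative to the bulk. Bax read 147.7, 154.3, 198.5 and 272.6 FPKM in control cells and 144.5, 147.2, 194.9 and 261.3 FPKM in knockdown cells. It climbed at every step in both arms, and its limits at 225 min lay above those at 0 min in both, which held for 2.97% of tested genes and for no other member. In control cells alone it held for 3.32% of tested genes and in knockdown cells alone for 7.01%, with Bax the only member in each. The slope was 0.23 ± 0.01 log2 units per hour (SE, limma adjusted p = 1.7e-06), at percentile 94.8, but -0.066 (adjusted p = 0.013) on the ribosomal scale and 0.045 (adjusted p = 0.036) after quantile normalization. Bak1 read 27.1, 24.7, 32.8 and 38.3 FPKM in control cells and 30.4, 30.5, 36.3 and 48.7 FPKM in knockdown cells. The limits at 0 and 225 min overlapped in each arm. Its slope was 0.17 ± 0.02 (SE, limma adjusted p = 4.4e-05), or -0.13 (adjusted p = 5.8e-05) on the ribosomal scale. Bax lies on chromosome 7 at 45461697 to 45466898 and Bak1 on chromosome 17 at 27019810 to 27029009, both on the minus strand. The deposited table gives Bak1 a locus shared with Ggnbp1, whose exons overlap on the other strand, and Ggnbp1 ran from 0.526 to 1.31 FPKM.

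Among the BH3-only genes, Bcl2l11 and Bbc3 fell. Bcl2l11 read 7.58, 6.80, 2.87 and 2.49 FPKM in control cells and 7.30, 6.56, 2.91 and 2.06 FPKM in knockdown cells. Most of the loss came between 15 and 105 min, at 0.83 and 0.78 log2 units per hour in the 2 arms, against 0.10 and 0.25 from 105 to 225 min. The limits at 0 and 225 min lay apart in both arms, and the slope was -0.38 ± 0.05 log2 units per hour (SE, limma adjusted p = 1.5e-04). Without a pseudocount it was -0.44 in control cells and -0.50 in knockdown cells. Leaving out 225 min, the slope of log2(FPKM + 1) was -0.64 (limma adjusted p = 9.0e-06). At 105 min 37.9% of the initial level was left in control cells, against 50.2% of Mcl1. Bbc3 read 4.70, 6.24, 3.23 and 2.23 FPKM in control cells and 3.89, 4.12, 2.74 and 1.54 FPKM in knockdown cells. In each arm its highest value was at 15 min, with overlapping limits at 0 and 15 min. The slope was -0.27 ± 0.03 (SE, limma adjusted p = 5.9e-05), and without a pseudocount -0.35 in control cells and -0.38 in knockdown cells. Its annotated 3′ UTR holds no ATTTA. The limits at 225 min lay below those at 0 min in knockdown cells and overlapped them in control cells. On the log2(FPKM + 1) scale the slopes of the arms differed by 0.0049 ± 0.04 (SE, limma adjusted p = 0.98). Bcl2l11 lies on chromosome 2 at 128126038 to 128162547 and Bbc3 on chromosome 7 at 16308393 to 16318205, both on the plus strand.

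Of the remaining BH3-only mRNAs, Bad rose relative to the bulk, and Bid and Pmaip1 did not pass. Bid read 16.1, 14.6, 15.9 and 13.5 FPKM in control cells and 17.7, 18.99, 18.1 and 16.3 FPKM in knockdown cells, a slope of -0.043 ± 0.02 log2 units per hour (SE, limma adjusted p = 0.057). Its limits at 0 and 225 min overlapped in both arms, and without 225 min the slopes of Bid and Pmaip1 changed sign (0.0081 and -0.031). Pmaip1 read 1.89, 1.62, 1.64 and 2.10 FPKM in control cells and 1.77, 1.97, 1.80 and 2.17 FPKM in knockdown cells, a slope of 0.039 ± 0.02 (SE, limma adjusted p = 0.10). Its level never left the range of 1.62 to 2.17 FPKM, and with 4 ATTTA its slope stood at percentile 55.2 of all tested genes. Bad read 8.44, 7.11, 10.5 and 11.5 FPKM in control cells and 8.44, 10.2, 9.82 and 12.3 FPKM in knockdown cells, with overlapping limits at 0 and 225 min. Its slope was 0.12 ± 0.03 (SE, limma adjusted p = 0.0030), was -0.15 (adjusted p = 0.0011) on the ribosomal scale, and did not pass without 225 min (0.14, adjusted p = 0.088). Bad shares its locus in the table with Gpr137, whose exons overlap on the other strand and whose FPKM ran from 6.46 to 11.6, so reads of the pair may be split between them. Exons of Bid overlap those of Bcl2l13 on the other strand in GENCODE, and Bcl2l13 ran from 27.0 to 30.1 FPKM.

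**Figure D2:**
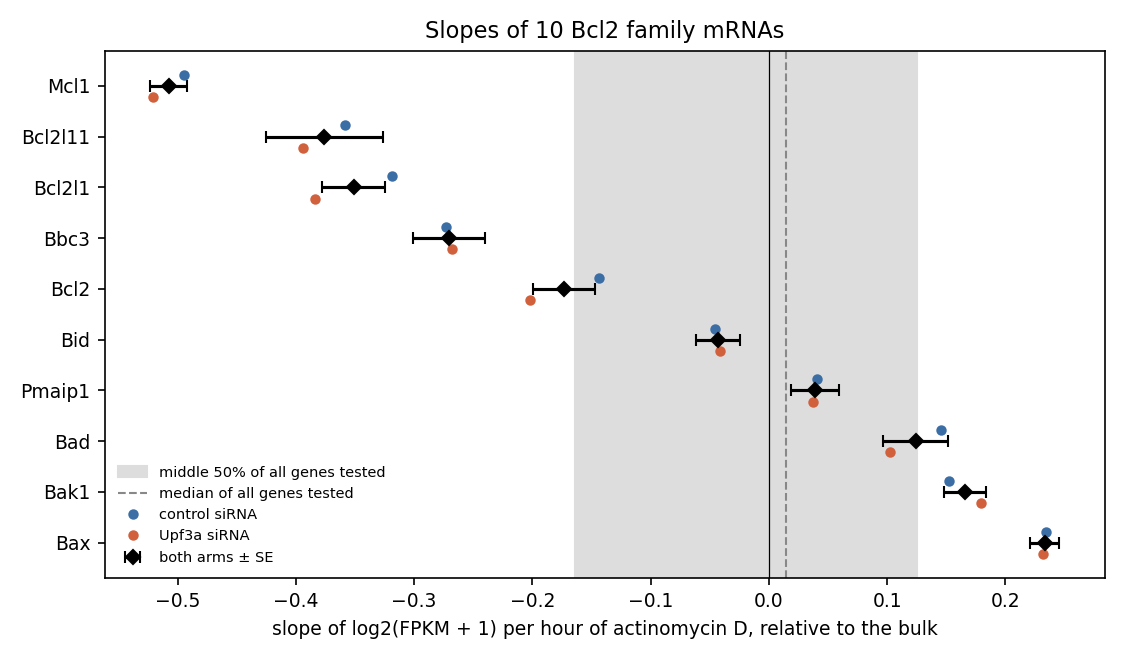
Slope of log2(FPKM + 1) per hour of actinomycin D, relative to the bulk (x axis), for each of the 10 genes (y axis), over both arms with its SE (black), in control cells (blue) and in knockdown cells (orange); the grey band is the middle 50% of all tested genes and the dashed line their median of 0.014. Mcl1 at -0.51 and Bax at 0.23 are at the ends. The slopes of the arms differ most for Bcl2l1 (-0.32 in control and -0.38 in knockdown cells) and Bcl2 (-0.14 and -0.20). Without a pseudocount those of Bcl2 were -0.27 and -0.42.

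Levels summed by role moved apart over the times in each arm. A ratio of sums inside 1 condition is unchanged when all genes of that condition are scaled by 1 factor. Quantile normalization rescales by level and can change it. It took the slope of Bax from 0.23 to 0.045 and that of Mcl1 from -0.51 to -0.54 log2 units per hour. The ratios below are from FPKM as deposited and were not computed after it. The 3 survival mRNAs summed to 78.3, 69.0, 43.3 and 22.7 FPKM at the 4 times in control cells and 78.3, 78.1, 44.8 and 21.5 FPKM in knockdown cells. Bax and Bak1 summed to 174.8, 179.0, 231.3 and 311.0 FPKM in control cells and 174.9, 177.7, 231.2 and 310.0 FPKM in knockdown cells. The survival to effector ratio accordingly read 0.448, 0.385, 0.187 and 0.0730 in control cells and 0.448, 0.439, 0.194 and 0.0694 in knockdown cells. The arms were alike at 0 min and stood farthest apart at 15 min; with 1 value per condition that gap has no test. Mcl1 made up 78.7% of the survival sum at 0 min in both arms, and 70.5% and 72.4% at 225 min. The ratio shows unequal change of the roles and does not say which role's mRNA changed in absolute amount.

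The sum of the 5 BH3-only mRNAs moved less than the survival sum, while its make-up shifted. The sum was 38.7 FPKM at 0 min and 31.8 at 225 min in control cells, and 39.1 and 34.4 FPKM in knockdown cells. Bcl2l11 went from 19.6% to 7.83% of the sum in control cells and from 18.6% to 5.98% in knockdown cells. Bad went from 21.8% to 36.3% and from 21.6% to 35.8%, and Bid stood between 40.1% and 51.1% throughout. At 225 min the BH3-only sum exceeded the survival sum in both arms, whereas at 0 min it was below it.

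**Figure D3:**
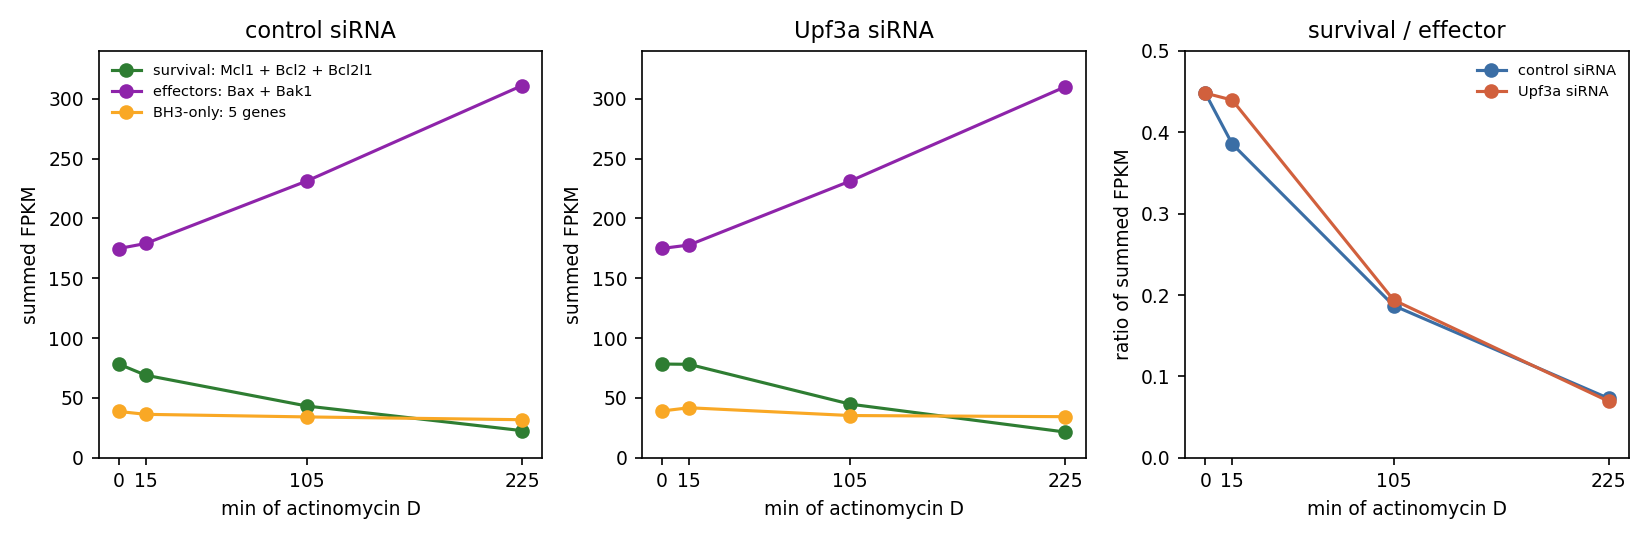
Summed FPKM of survival, effector and BH3-only mRNAs (y axis) against minutes of actinomycin D (x axis) in control and knockdown cells, and at right the ratio of the survival to the effector sum by arm. The ratio goes from 0.448 to 0.0730 in control cells and from 0.448 to 0.0694 in knockdown cells.

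The second comparison asked whether levels differed between the arms over the 4 times. Bak1 and Bid were higher in knockdown cells and Bbc3 was lower, each by a small amount, and the other 7 members did not pass. Among all tested genes, limma called 26.1% higher and 22.3% lower, and 48.4% either way, so 2 members higher and 1 lower of 10 is no more than the background. Scaled to ribosomal protein genes, 3105 of the tested genes were higher and 1109 lower, against 2986 and 2557 as deposited. The authors' limits of the arms overlapped for all 10 members at all 4 times, where 2.90% of tested genes had limits apart at 1 or more times. The knockdown-to-control ratio was on one side of 1 at all 4 times for 4 members (Bak1, Bid, Bax and Bbc3), as for 60.4% of tested genes. It was above 1 throughout for 2 members (31.8% of tested genes) and below 1 throughout for 2 (28.6%). The labels do not tie times to transfections, so an effect of the transfection itself cannot be told apart from one of the knockdown.

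Bbc3, a BH3-only activator of apoptosis and a known p53 target, had knockdown-to-control ratios of 0.829, 0.661, 0.849 and 0.688 at 0, 15, 105 and 225 min. It was lower at 4 of 4 times, with a log2 difference of -0.31 ± 0.06 on the log2(FPKM + 1) scale (SE, limma adjusted p = 0.0049). Bak1 had ratios of 1.12, 1.24, 1.11 and 1.27, a log2 difference of 0.23 ± 0.05 (SE, limma adjusted p = 0.0072). Bid had ratios of 1.10, 1.30, 1.13 and 1.21, also a log2 difference of 0.23 ± 0.05 (SE, limma adjusted p = 0.0086). Both exceeded control at 4 of 4 times. With 4 pairs of time points, an exact sign-flip test (two-sided) can reach no p below 0.125.

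For the members that did not pass, the interval of the difference shows what size the data still allow on the log2(FPKM + 1) scale. The 95% interval from limma ran from -0.055 to 0.17 log2 units for Mcl1, from -0.16 to 0.16 for Bcl2l1, from -0.17 to 0.13 for Bcl2 and from -0.14 to 0.046 for Bax. For the BH3-only genes it ran from -0.18 to 0.044 for Bcl2l11, from -0.088 to 0.32 for Bad and from -0.058 to 0.18 for Pmaip1. These intervals cover the spread between time points only, and the pseudocount of 1 shrinks differences of low genes such as Bcl2 and Pmaip1. Without a pseudocount the log2 ratio over the 4 times had a mean of -0.065 and an SD of 0.37 for Bcl2. For Pmaip1 the mean was 0.094 and the SD 0.16, so larger differences of these genes are not excluded. Bax was lower at 4 of 4 times by little, with ratios between 0.954 and 0.982. At 15 min, 6 members were higher in knockdown cells, with Bad at 1.43, Pmaip1 at 1.22 and Bcl2l1 at 1.20, where the median of all genes was 1.02 and 53.8% of genes were higher. At 225 min 4 members were higher and 6 lower, where 51.6% of genes were higher. Bcl2 had its lowest ratio, 0.670, at 225 min.

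**Figure D4:**
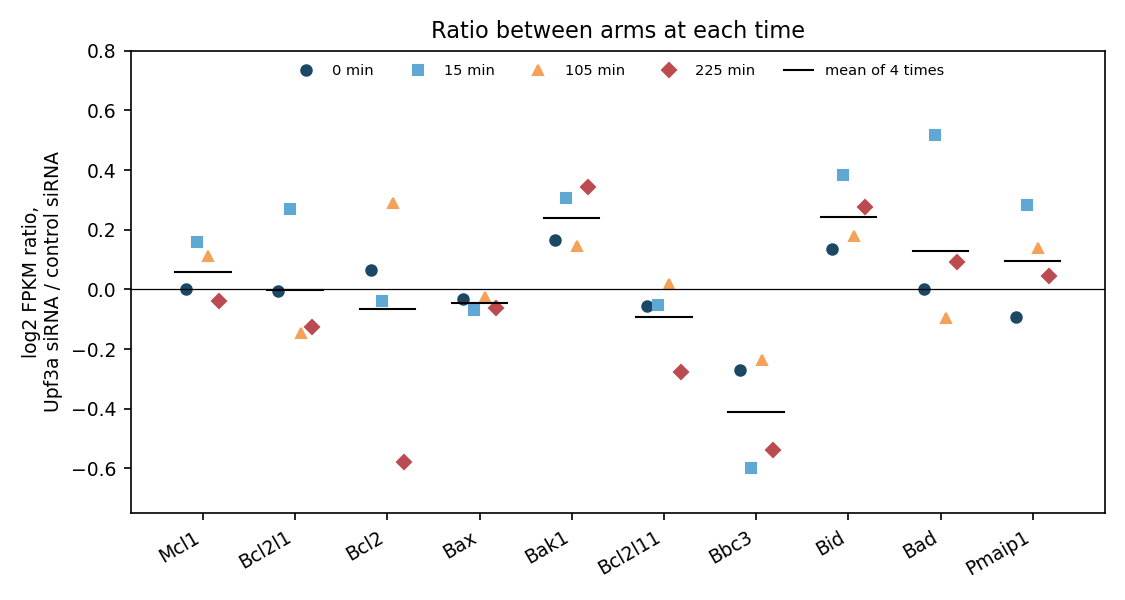
Log2 ratio of FPKM in Upf3a knockdown over control cells (y axis) for each of the 10 genes (x axis) at the 4 times (symbols), with the mean of the 4 times as a black bar. Bak1 and Bid lie above 0 and Bbc3 and Bax below 0 at all 4 times, and the points of the other genes fall on both sides of 0.

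The third comparison addressed the design's own question, whether loss of UPF3A changes transcript stability, as the difference of slopes between the arms. No member passed. limma called 0 of 10, with adjusted p from 0.78 to 0.99, and 0 had an unadjusted p below 0.05; of all tested genes 0.00873% passed. On the log2(FPKM + 1) scale the largest differences were -0.065 ± 0.04 log2 units per hour for Bcl2l1 and -0.058 ± 0.04 for Bcl2 (SE). Both are toward faster loss in knockdown cells. With a pseudocount of 0.1 the difference was -0.13 for Bcl2 and -0.072 for Bcl2l1 (limma adjusted p = 0.77 and 0.79), so their order depends on the pseudocount. The intervals that follow are on the log2(FPKM + 1) scale, which shrinks differences of low genes such as Bcl2. The 95% interval was -0.16 to 0.034 for Bcl2l1, -0.15 to 0.034 for Bcl2, -0.10 to 0.051 for Mcl1 and -0.11 to 0.038 for Bcl2l11. For the retained mRNAs it was -0.069 to 0.063 for Bax, -0.053 to 0.11 for Bak1 and -0.19 to 0.10 for Bad, and for the other BH3-only genes -0.098 to 0.11 for Bbc3, -0.082 to 0.091 for Bid and -0.089 to 0.082 for Pmaip1. Set beside the slope of Mcl1, -0.49 in control cells and -0.52 in knockdown cells, the interval of Mcl1 itself still admits a difference of -0.10.

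Other genes of the death pathway were described from lists built by function. Their counts stand beside 42.7% of all tested genes that rose and 38.6% that fell over the time course, and 26.1% that were higher and 22.3% lower between arms; with 5 to 9 genes tested per list, nothing particular to a list is read from them. Of 15 further Bcl2 family genes 8 were tested, and over the time course 3 rose and 2 fell: the BH3-only genes Bmf and Bik had slopes of -0.33 each, and Bnip3l and Bcl2l12 of 0.10 each. Bmf went from 3.58 to 1.12 FPKM in control cells and Bik from 3.87 to 1.34 FPKM. Between arms 2 were higher and 2 lower, with Bok at 0.32 and Bcl2l12 at 0.22 log2 units, Bmf at -0.21 and Bnip3, a mitophagy receptor of the family, at -0.62. Bnip3 read 55.1, 74.5, 59.96 and 79.7 FPKM in control cells and 37.6, 43.9, 41.8 and 49.5 FPKM in knockdown cells, lower at every time.

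Of 9 tested apoptosome and caspase genes, 6 rose and 2 fell over the time course, with Cycs, or cytochrome c, at 0.20 and Casp6 at 0.16 against Casp2 at -0.27 and Apaf1 at -0.11 log2 units per hour. Between arms 5 of the 9 were lower (22.3% of all tested genes) and 1 higher (26.1%), with a median log2 difference of -0.13 where that of all genes was 0.0046. Apaf1, the scaffold of the apoptosome, was at -0.55 (11.4, 11.8, 10.7 and 8.60 FPKM in control cells; 7.68, 7.35, 7.44 and 5.37 FPKM in knockdown cells). Of the pair that makes up the apoptotic DNase, the nuclease Dffb was at -0.42 and its inhibitor Dffa at 0.44. Of 8 tested inhibitors of apoptosis and released mitochondrial proteins, 5 rose and 3 fell with time, among them Htra2 at 0.14, Diablo at 0.13, Birc2 at -0.32 and Xiap at -0.22. Between arms, Birc5 (survivin) at 0.49 and Htra2 at 0.49 were higher and Xiap at -0.20 was lower, while Birc2 at -0.11 did not pass.

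Of 8 genes whose products act on Mcl1 protein stability, 5 were tested. Fbxw7, the recognition subunit of a ubiquitin ligase for Mcl1, fell at -0.47 log2 units per hour, from 7.29 to 1.49 FPKM in control cells, and the deubiquitinase Usp9x fell at -0.17. Ube2s rose at 0.14 and the ligase Huwe1 at 0.080. Between arms 2 of the 5 were higher, Usp9x at 0.24 and Fbxw7 at 0.15. No gene of these lists passed for the difference of slopes by limma, and at an unadjusted p below 0.05 stood 1 of the 8 inhibitor and mitochondrial genes, Htra2, and 0 in each other list. Every rise named for these lists is relative to the bulk and is a slope below the 0.30 of the ribosomal protein genes.

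The genes most like Mcl1 in pattern were sought among 7608 genes averaging at least 5 FPKM, leaving out the members and symbols of predicted genes, microRNAs, small nucleolar RNAs and Riken clones, by the root mean square difference between centred log2(FPKM + 1) profiles over the 8 conditions. Closest were Spata13 (0.064 log2 units), Fam108b (0.068), Fbxo28 (0.068), Siah1b (0.068) and Ippk (0.071), where the median gene was at 0.85. For Bax they were P4hb (0.027), Vat1 (0.029), Ubxn6 (0.030), Nucb1 (0.031) and Tkt (0.032), where the median gene was at 0.32. Over all tested genes with a 3′ UTR, the median slope was 0.098 for the 2993 without ATTTA, 0.036 with 1 to 2, -0.045 with 3 to 5 and -0.099 with 6 or more, while the median 3′ UTR length rose from 425 to 3311 bases over these classes, so motif count and length cannot be told apart here. Members lay on both sides of the medians of their classes. Below were Mcl1 (8 ATTTA, slope -0.51), Bcl2l11 (6, -0.38), Bcl2 (15, -0.17), Bcl2l1 (1, -0.35), Bbc3 (0, -0.27) and Bid (0, -0.043). Above were Bax (0, 0.23), Bak1 (0, 0.17), Bad (1, 0.12) and Pmaip1 (4, 0.039).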

How the data were processed

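Per the submitters' processing notes, TopHat2 and Cufflinks were used with the mm10 build; versions and annotation are not given in the sources used here. The authors deposited 1 FPKM with a lower and an upper limit, whose level is not stated, per gene and condition. The labels list 2 cultures per condition, and how these entered the value is not stated. The deposited status was OK for every member. Conditions were matched to columns by arm and time.

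Values were taken as log2(FPKM + 1) for genes averaging at least 1 FPKM, and tested with limma 3.58.1 in R 4.3.3 (eBayes without trend, Benjamini-Hochberg over all 11452 genes, threshold 0.05); Python 3.11.15 read the table. The arm difference was fitted with time as a factor (3 residual degrees of freedom), the slope with arm as a factor (5), and the slope difference as arm by hours with time as a factor (2). The fits were checked on simulated data with independent noise in each condition. That check does not cover an effect shared by all times of an arm, or the spread between cultures. FPKM keeps no depth, so no counting intervals are given. Members and lists were chosen with earlier results of these data known. All 10 members are named; other list genes are the 2 highest and 2 lowest by moderated t in each list and comparison, and the genes most like Mcl1 and Bax are the 5 closest profiles. Gene positions and 3′ UTRs came from GENCODE vM21 (GRCm38), with a 3′ UTR for 88.1% of tested genes. No protein sequence was used here, and no sequence of Pmaip1 is printed.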

Additional observations from a re-analysis of the deposited data

How the results depend on the processing

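Alternatives were pseudocounts of 0.1 and 5, no filter, a mean FPKM of at least 5, 3 scalings, trend and robust moderation, and leaving out each time point. No paired analysis was possible because the columns carry no replicate numbers; the arms were matched by time, with time as a factor. The falls of Mcl1, Bcl2l1, Bcl2, Bcl2l11 and Bbc3 and the arm differences of Bak1, Bid and Bbc3 kept direction and call wherever the gene was tested; at a mean FPKM of at least 5, Bcl2, Bcl2l11, Bbc3 and Pmaip1 were not.

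Scaled to ribosomal protein genes, slopes turned negative for Bax (-0.066), Bak1 (-0.13), Bad (-0.15) and Pmaip1 (-0.16), by construction, since the reference genes themselves rose. That scaling also turned arm differences of Bcl2 (0.043), Bax (0.021) and Bcl2l11 (0.0025) and slope differences of Bak1 (-0.030), Bid (-0.053) and Bbc3 (-0.015). Quantile normalization turned arm differences of Bcl2 (0.018) and Bcl2l1 (-0.015) and slope differences of Bak1 (-0.0078), Bid (-0.022) and Pmaip1 (0.012), and gave Pmaip1 a called slope of 0.16 and Bax one of 0.045. Arm differences of Bcl2l1 were -0.0026 with a pseudocount of 0.1 and -0.027 with median-of-ratios scaling, and the slope difference of Bbc3 was -0.020 with a pseudocount of 0.1. None of these turned arm or slope differences had passed the test, and the cause was not tested. A pseudocount of 5 shrank the slopes of Bcl2 (-0.059), Bbc3 (-0.14) and Bcl2l11 (-0.21) and the arm difference of Bbc3 (-0.16), and one of 0.1 gave Bcl2 a slope of -0.31; all stayed called. The slope of Bid passed under 6 alternatives, among them the ribosomal scaling.

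Leaving out each time point, arm differences ran from -0.072 to 0.052 for Bcl2, -0.083 to 0.046 for Bcl2l1 and -0.00079 to 0.18 for Bad. Slopes ran from -0.049 to 0.0081 for Bid and -0.031 to 0.051 for Pmaip1, turning without 225 min. Bad lost its call there, and the slope of Bcl2l11 ran from -0.64 without 225 min to -0.34. Slope differences ran from -0.056 to 0.028 for Mcl1, -0.075 to 0.075 for Bcl2, -0.0080 to 0.012 for Bax, -0.042 to 0.048 for Bak1, -0.046 to 0.037 for Bcl2l11, -0.16 to 0.024 for Bad, -0.029 to 0.035 for Bid, -0.036 to 0.090 for Bbc3 and -0.042 to 0.032 for Pmaip1. The number of all tested genes with a called slope difference was 1, against 0 without a filter, 2 on the ribosomal scale, 6 with trend and robust moderation and 2 to 22 without a time point (22 without 0 min); no member was among them under any alternative. Depth is unknown, and the limits of low genes such as Bcl2 and Pmaip1 are wide relative to their level.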
